A study of Mus musculus with 100 samples.

Results

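A set of 9 genes that act mainly in germ cells, read in mouse embryonic stem (ES) cells, is described here, out of 24206 named genes in the deposited tables. They were taken by symbol, not by their levels, but with earlier results of these data known. They are Ddx4, Dazl, Mael, Tdrkh, Asz1, Sycp1, Sycp3, Slc25a31 and Tex101. Each gene was read from its RefSeq transcript with the highest mean level over all libraries. Messenger RNA of V6.5, a hybrid mouse ES cell line, was sequenced in 100 libraries, 2 for each of 47 knockdowns and 3 control groups. Every knockdown used a short hairpin RNA (shRNA) against 1 subunit, and every control a plasmid labelled shControl.

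The knockdowns fall into 3 sets by the control their labels name. Set A holds 15 TFIID subunits (shTaf1 to shTaf13, shTaf4b and shTbp) and 5 subunits called here the lower Mediator tail (shMed15, shMed16, shMed23, shMed24, shMed25), all read against control_A. Set B holds shGcn5 and shUsp22, which target subunits of the SAGA coactivator, and 23 Mediator knockdowns, all read against control_B. Its Mediator subunits are 4 of the kinase module (shCcnc, shCdk8, shMed12, shMed13), 8 middle, 7 head and 4 upper tail subunits. Set C holds shMed1 and shMed14, read against control_C. All groups share the same handling per the labels: cells were kept on feeders with LIF, taken off feeders, transfected with 1.8 µg of plasmid, and kept in puromycin (1 µg/ml) from 24 h for a selection of 72 h. Nothing in the labels tells whether a group's pair of libraries stems from different cultures, and p-values then measure only the spread between these libraries.

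The genes belong to the program that builds the germ line. Ddx4 (the mouse Vasa), Mael, Tdrkh and Asz1 act in germ granules, where piRNAs, small RNAs that silence transposons, are made. Dazl binds messenger RNAs and is needed for germ cell development. Sycp1 forms the cross-bridges and Sycp3 the side elements of the synaptonemal complex, which holds paired chromosomes together in meiosis. Slc25a31 is a mitochondrial ADP/ATP carrier of germ cells, and Tex101 a surface protein of germ cells. In ES cells many genes of this kind are held at low levels by DNA methylation of CpG-rich promoters and by a variant Polycomb complex, PRC1.6, that binds through Mga with Max and through E2f6.

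The promoters of 6 of the genes are printed because 5 of them carry letters of both kinds that PRC1.6 subunits are known to bind, while Dazl, which moved with them after shGcn5, carries neither. Tdrkh, whose promoter is not printed, carries neither as well, and it too fell after shGcn5, though by less. Windows run from 250 bases before to 50 after the start of transcription, 5′ to 3′ on the strand of the gene, from RefSeq on build GRCm38.p6 (the tables themselves give no positions). Capitals mark CACGTG, an E-box, and GCGGGA or its reverse complement TCCCGC, an E2F-type motif, and no marked motifs overlap.
Ddx4 (chr13:112652261-112652560, minus strand): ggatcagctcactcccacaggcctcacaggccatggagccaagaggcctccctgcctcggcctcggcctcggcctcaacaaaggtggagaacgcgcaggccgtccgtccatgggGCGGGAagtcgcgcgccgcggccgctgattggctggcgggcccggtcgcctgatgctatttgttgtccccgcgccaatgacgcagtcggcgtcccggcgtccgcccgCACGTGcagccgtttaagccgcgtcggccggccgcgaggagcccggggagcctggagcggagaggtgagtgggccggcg
Mael (chr1:166238695-166238994, minus strand): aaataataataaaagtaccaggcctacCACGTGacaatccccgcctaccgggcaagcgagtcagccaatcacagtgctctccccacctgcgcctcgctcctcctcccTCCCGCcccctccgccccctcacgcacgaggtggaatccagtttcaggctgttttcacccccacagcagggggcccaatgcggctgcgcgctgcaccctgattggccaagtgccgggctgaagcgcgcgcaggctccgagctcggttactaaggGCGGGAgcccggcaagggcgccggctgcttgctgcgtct
Sycp1 (chr3:102936051-102936350, minus strand): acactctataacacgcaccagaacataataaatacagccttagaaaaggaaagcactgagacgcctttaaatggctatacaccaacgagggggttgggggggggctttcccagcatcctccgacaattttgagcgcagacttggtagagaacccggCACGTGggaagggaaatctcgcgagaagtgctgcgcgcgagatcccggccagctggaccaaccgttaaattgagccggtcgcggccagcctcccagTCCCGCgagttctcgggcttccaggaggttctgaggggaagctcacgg
Sycp3 (chr10:88459337-88459636, plus strand): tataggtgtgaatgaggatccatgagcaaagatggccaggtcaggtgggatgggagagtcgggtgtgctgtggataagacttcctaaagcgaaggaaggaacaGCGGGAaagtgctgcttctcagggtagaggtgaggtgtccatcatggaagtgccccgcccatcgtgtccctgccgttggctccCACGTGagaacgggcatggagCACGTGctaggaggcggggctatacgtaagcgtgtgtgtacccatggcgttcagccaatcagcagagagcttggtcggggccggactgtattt
Slc25a31 (chr3:40708621-40708920, plus strand): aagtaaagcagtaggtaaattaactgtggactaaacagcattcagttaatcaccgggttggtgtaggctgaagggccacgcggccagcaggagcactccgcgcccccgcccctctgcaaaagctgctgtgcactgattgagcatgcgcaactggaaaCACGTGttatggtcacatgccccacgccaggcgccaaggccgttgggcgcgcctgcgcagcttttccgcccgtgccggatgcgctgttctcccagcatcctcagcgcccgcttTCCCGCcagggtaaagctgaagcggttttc
Dazl (chr17:50293571-50293870, minus strand): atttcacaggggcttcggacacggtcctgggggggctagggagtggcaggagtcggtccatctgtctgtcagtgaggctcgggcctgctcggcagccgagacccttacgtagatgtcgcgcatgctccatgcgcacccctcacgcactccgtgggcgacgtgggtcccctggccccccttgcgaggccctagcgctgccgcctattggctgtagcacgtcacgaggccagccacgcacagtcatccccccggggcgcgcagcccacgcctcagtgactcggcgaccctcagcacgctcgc

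Of 32851 RefSeq promoters of 300 bases, 7.15% hold CACGTG, 6562 hold GCGGGA or TCCCGC, and 1.99% hold both. Both were found in Ddx4, Mael, Sycp1, Sycp3 and Slc25a31, and neither in Dazl, Tdrkh, Tex101 or Asz1. The E-box of Ddx4 starts 29 bases before the start of transcription, those of Sycp1 and Slc25a31 94 and 93 bases before it, that of Mael 223 bases before it, and Sycp3 has a pair at 64 and 43 bases before it. The letters TATAAA or TTTATA, present in 13.6% of all promoters, are in 0 of the 9 windows. The 9 windows hold 15 (Sycp3) to 38 (Ddx4) CpG dinucleotides, against a median of 7 over all promoters (quartiles 3 and 20). A match describes these letters only. No binding was measured in these files.

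**Figure D1:**
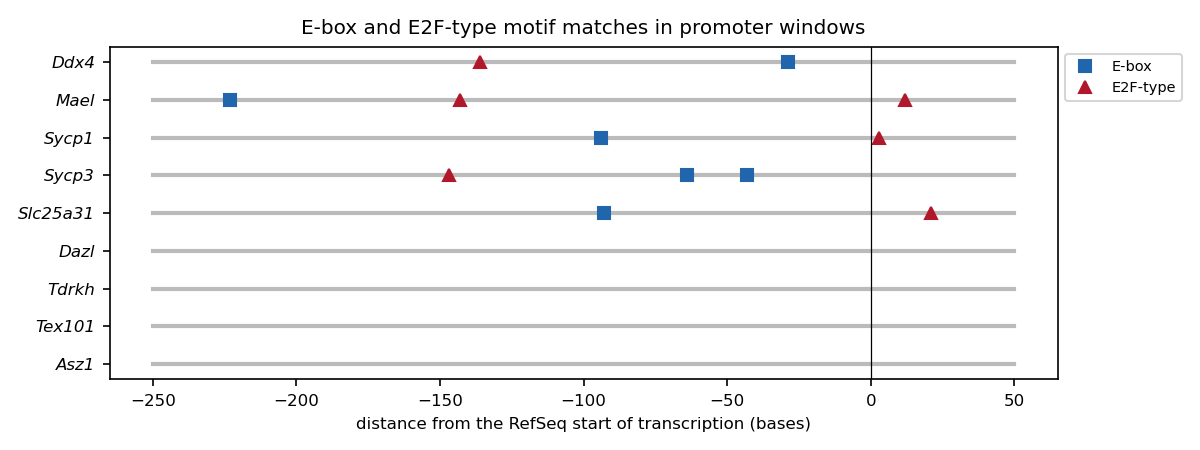
Positions of E-box (squares) and E2F-type (triangles) letters in the promoter windows of the 9 genes, as the distance in bases from the RefSeq start of transcription (vertical line). Both kinds occur in 5 genes, and the windows of Dazl, Tdrkh, Tex101 and Asz1 hold neither.

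Levels are given as RPKM, read numbers divided by the length of the transcript and the size of the library, so they can be compared between genes. Of the 9 genes, 7 were above the level needed for testing, at least 1 RPKM in at least 2 of the 100 libraries. Over all libraries the median level was 16.3 RPKM for Ddx4 (5.05 to 35.8), 9.33 for Mael (3.89 to 18.9), 6.85 for Sycp3 (4.15 to 17.4), 3.45 for Dazl (0.901 to 6.47), 3.19 for Sycp1 (1.31 to 7.92), 2.52 for Tdrkh (1.15 to 6.66) and 1.81 for Slc25a31 (0.515 to 4.66). These levels rest on a median of 91.5 (Slc25a31) to 1081.5 (Ddx4) reads a library. Tex101 stayed between 0 and 0.952 RPKM (0 to 29 reads) and Asz1 between 0 and 0.188 RPKM (0 to 10 reads), and 16 libraries had no Asz1 read. Both are given as levels only, and at this depth a change of Asz1 was not detectable.

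The control groups differed among themselves. Ddx4 had 15.6 and 13.4 RPKM in control_A, 19.9 and 20.1 in control_B, and 15.2 and 14.9 in control_C. Sycp3 had 8.19 and 7.16 RPKM in control_A, 9.50 and 8.60 in control_B, and 16.8 and 16.01 in control_C. Slc25a31 had 1.34 and 1.12 RPKM in control_A, 2.39 and 2.02 in control_B, and 0.773 and 0.515 in control_C. Each knockdown was therefore read only against its own control group.

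RPKM denominators were 17.25 to 39.32 M reads (median 23.32). In set B the targeted transcript stood at 14.2% to 68.9% of control_B. In set A it stood at 15.9% to 59.0% of control_A in the libraries labelled replicate 2, but at a median of 102.4% (56.9% to 172.7%) in those labelled replicate 1, so the replicate 2 libraries are used below, 1 per knockdown. In the replicate 2 libraries the labelled target was the lowest of all 47 targets, relative to control_A, in 20 of 20. In the replicate 1 libraries it was so in 0 of 20, and in 14 of the 15 labelled for TFIID the lowest was another TFIID subunit (Taf1 at 40.4% in the library labelled shTaf2, Taf2 at 37.4% in that labelled shTaf3). The replicate 1 knockdown libraries of set A thus go against their labels, and their values stand below for the library labelled so. In the library labelled shTbp replicate 1 no target was clearly lowered, the lowest of the 47 being Med11 at 76.7%. A control has no target of its own, and whether any target was lowered in control_A replicate 1 was not examined. Its label is thus unchecked, and it is 1 of the 2 libraries behind every control_A value below. A fit of all 100 libraries, used below as an alternative, takes both labelled libraries of each set A knockdown as 1 group. Its spread thus holds differences between knockdowns. In set C the targets stood at 66.0% and 61.5% in the libraries labelled replicate 1 and at 97.9% and 99.1% in those labelled replicate 2. Markers of later male germ cells (Prm1, Prm2, Tnp1, Tnp2, Acr, Acrv1, Odf1) were under 1 RPKM in every library, 7 of 7, and 1 of them was at 0 throughout. The 8 ES cell markers summed to 442 to 1970 RPKM, and 8 fibroblast feeder markers to 0.977 to 8.61 RPKM.

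**Figure D2:**
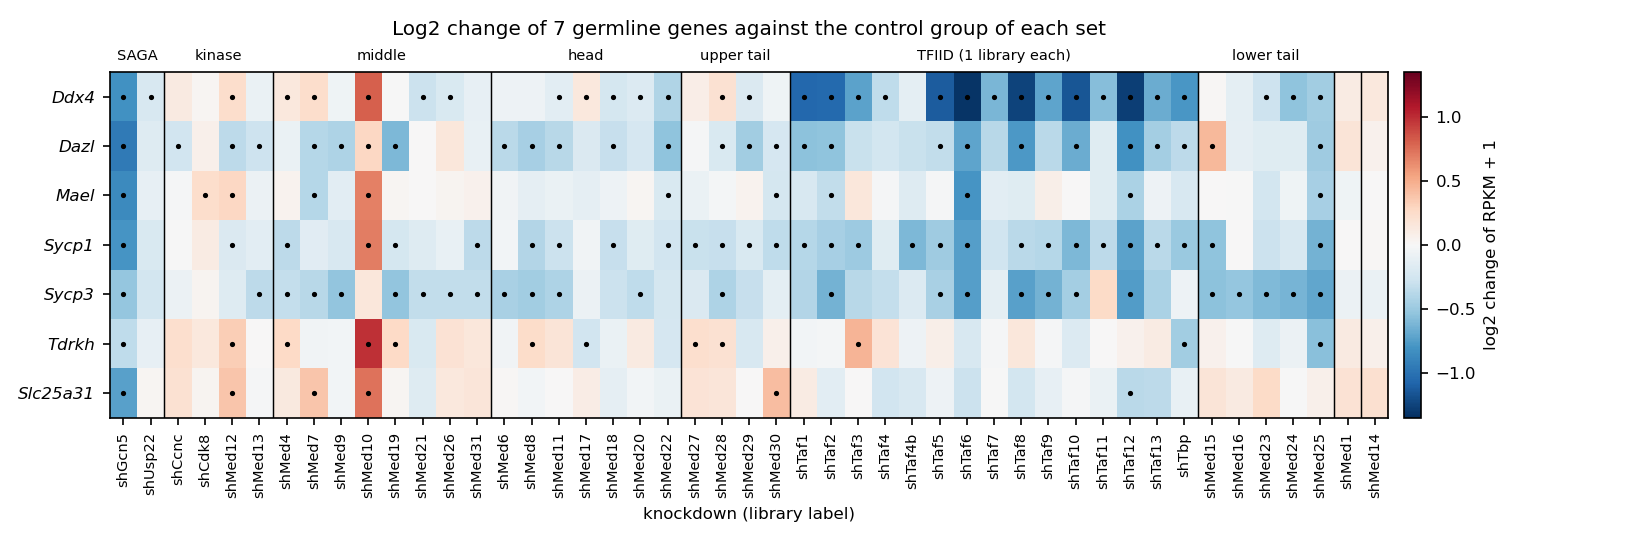
Log2 change of RPKM + 1 for the 7 tested germline genes (rows) in 47 knockdowns (columns, grouped by complex and module), each against its own control group; shMed1 and shMed14 stand in the last 2 columns. Dots mark an adjusted p under 0.05 in limma. The shGcn5 column is lower for 7 of 7 genes and the shMed10 column higher for 6 of 7, and Ddx4 is lower in 14 of 15 TFIID columns.

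After knockdown of Gcn5 (gene Kat2a), the acetyltransferase of SAGA, all 7 tested genes fell. Kat2a itself stood at 16.4% and 18.5% of control_B. Over all 12974 genes tested, 12.4% fell in this comparison, and the median log2 change was -0.80 over the 7 genes and 0.04 over all genes. Log2 changes here are of RPKM + 1, which understates the change of low genes, and each is followed by its standard error.

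Among the germ granule and RNA genes, Ddx4 had 10.6 and 11.2 RPKM in shGcn5 libraries, against 19.9 and 20.1 RPKM in control_B, a log2 change of -0.82 ± 0.05 (adjusted p = 3.57e-14). Dazl had 2.17 and 1.95 RPKM in shGcn5 libraries, against 4.67 and 5.20 in control_B (-0.96 ± 0.08, adjusted p = 1.87e-10). Mael had 5.78 and 5.84 RPKM in shGcn5 libraries, against 11.3 and 11.4 in control_B (-0.86 ± 0.07, adjusted p = 1.09e-10). On the linear scale Ddx4 was at 54.5%, Dazl at 41.7% and Mael at 51.3% of the control mean. Tdrkh, a partner of Piwi proteins, changed least, with 1.86 and 2.25 RPKM in shGcn5 libraries against 2.70 and 3.02 in control_B (-0.34 ± 0.09, adjusted p = 0.00356). Its call was lost without shGcn5 replicate 1 (adjusted p = 0.0927), without control_B replicate 2 (adjusted p = 0.0629) and in a fit of all 100 libraries (adjusted p = 0.264).

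Both synaptonemal complex genes fell. Sycp1 had 1.84 and 2.36 RPKM in shGcn5 libraries, against 4.40 and 4.34 in control_B (-0.80 ± 0.07, adjusted p = 3.27e-10). Sycp3 had 5.13 and 6.96 RPKM in shGcn5 libraries, against 9.50 and 8.60 in control_B (-0.52 ± 0.11, adjusted p = 4.88e-04). Its 2 shGcn5 libraries were further apart than those of the other genes, but both lay under both controls. The call of Sycp3 was lost without shGcn5 replicate 1 (adjusted p = 0.0509) and in the fit of all 100 libraries (adjusted p = 0.18). The carrier gene Slc25a31 had 0.829 and 1.03 RPKM in shGcn5 libraries, against 2.39 and 2.02 in control_B, which is 42.2% of the control mean (-0.73 ± 0.11, adjusted p = 4.07e-06). Tex101 had 0.0874 and 0.197 RPKM in shGcn5 libraries, against 0.158 and 0.445 in control_B, and these overlap.

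In bulk RNA, fewer cells of a type and less RNA per cell cannot be told apart. The 8 ES cell markers summed to 1350 RPKM in both shGcn5 libraries and to 1360 and 1380 RPKM in control_B, with 5 of 8 lower and 1 higher (Klf4 -1.50, Esrrb -0.88). The 8 markers of two-cell-like cells, a rare state of ES cultures, summed to 2.55 and 3.63 RPKM in shGcn5 libraries and to 11.4 and 12.9 RPKM in control_B. Of the 5 that could be tested, 5 fell, and 2 of the 8 were at 0 in both groups. The part of these cells in the change of the germline genes was not tested.

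Knockdown of Usp22, the ubiquitin protease of SAGA, gave smaller values. Usp22 stood at 38.1% and 41.0% of control_B. Of the 7 genes 1 fell and 0 rose, while 1.79% of all genes fell and 2.34% rose. That gene was Ddx4, with 16.9 and 17.2 RPKM in shUsp22 libraries against 19.9 and 20.1 in control_B (-0.22 ± 0.05, adjusted p = 0.00712). The others had log2 changes of -0.25 (Sycp3) to 0.03 (Slc25a31) and did not pass. Both SAGA knockdowns share control_B.

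The difference between the 2 SAGA knockdowns was tested directly, a comparison added after the values were seen. In shGcn5 against shUsp22 libraries 5 of 7 genes were lower, while 11.5% of all genes were. The differences were -0.60 ± 0.05 for Ddx4, -0.79 ± 0.08 for Dazl, -0.74 ± 0.07 for Mael, -0.59 ± 0.07 for Sycp1 and -0.76 ± 0.11 for Slc25a31, with adjusted p-values from 4.84e-11 (Ddx4) to 2.92e-06 (Slc25a31). Sycp3 (-0.27, adjusted p = 0.067) and Tdrkh (-0.23, adjusted p = 0.0513) did not pass.

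**Figure D3:**
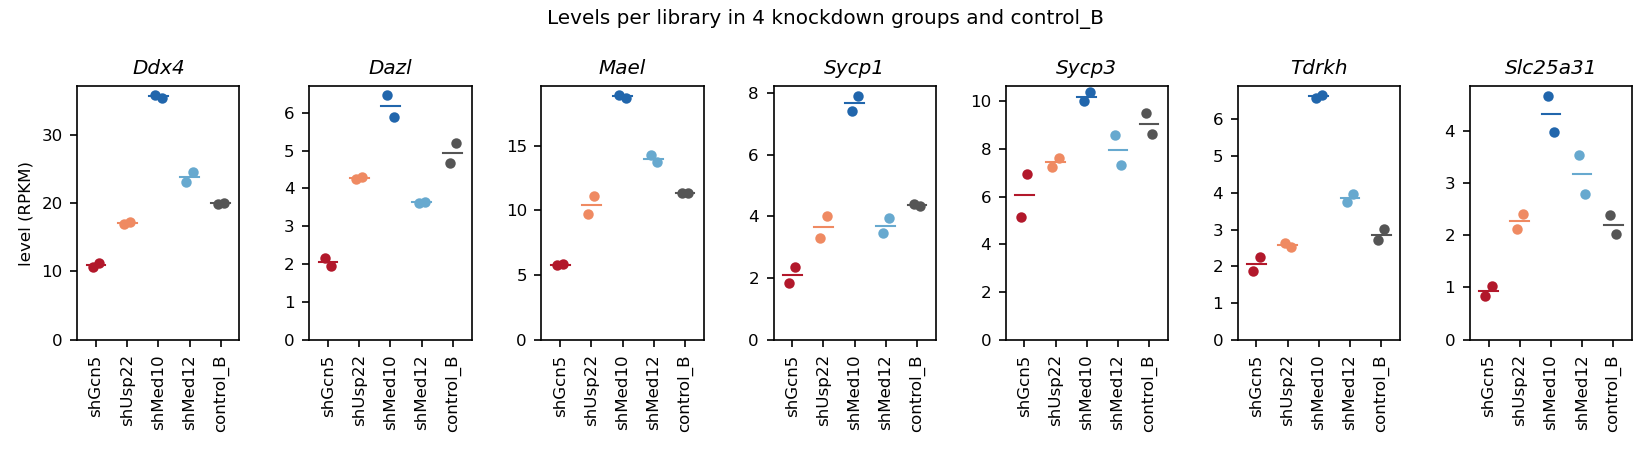
Levels (RPKM) of the 7 tested germline genes in both libraries (points) of shGcn5, shUsp22, shMed10, shMed12 and control_B, with the mean of each group as a line. The shGcn5 points lie under both control_B points for every gene, and the shMed10 points lie above them. How many of all genes do so was not counted.

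Knockdown of Med10, a subunit of the Mediator middle module, moved the genes the other way. Med10 stood at 21.4% and 18.7% of control_B. Of the 7 genes 6 rose and 0 fell, while 31.2% of all genes rose and 33.4% fell in this comparison. The median log2 change was 0.69 over the 7 genes and -0.02 over all genes.

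Tdrkh rose most, with 6.58 and 6.66 RPKM in shMed10 libraries against 2.70 and 3.02 in control_B, 231.2% of the control mean (0.98 ± 0.09, adjusted p = 3.66e-11). Ddx4 had 35.8 and 35.4 RPKM in shMed10 libraries, against 19.9 and 20.1 in control_B (0.80 ± 0.05, adjusted p = 4.22e-15). Mael had 18.9 and 18.7 RPKM in shMed10 libraries, against 11.3 and 11.4 in control_B (0.68 ± 0.07, adjusted p = 1.75e-09). The rise of Dazl was the smallest of the 6, with 6.47 and 5.89 RPKM in shMed10 libraries against 4.67 and 5.20 in control_B (0.27 ± 0.08, adjusted p = 0.00553), and this call was lost without shMed10 replicate 1 (adjusted p = 0.0749), without control_B replicate 1 (adjusted p = 0.0831) and in the fit of all 100 libraries (adjusted p = 0.25).

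Sycp1 had 7.43 and 7.92 RPKM in shMed10 libraries, against 4.40 and 4.34 in control_B (0.69 ± 0.07, adjusted p = 9.04e-10). Its partner Sycp3 had 10.02 and 10.36 RPKM in shMed10 libraries, against 9.50 and 8.60 in control_B, and did not pass (0.16 ± 0.11, adjusted p = 0.225). Slc25a31 had 4.66 and 3.97 RPKM in shMed10 libraries, against 2.39 and 2.02 in control_B (0.73 ± 0.11, adjusted p = 8.74e-07). Tex101 reached its highest value of all libraries here, at 0.798 and 0.952 RPKM in shMed10 libraries against 0.158 and 0.445 in control_B, with shMed26 libraries next at 0.596 and 0.839. These values do not overlap the controls, but they rest on at most 29 reads.

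Against the mean of the other 22 Mediator knockdowns of set B, a comparison added after the values were seen, all 7 genes were higher after shMed10, while 31% of all genes were. Since shMed10 already stood highest of the 26 set B groups for all 7 genes, the direction was known beforehand. The differences were 0.91 ± 0.06 for Tdrkh, 0.90 ± 0.05 for Sycp1, 0.85 ± 0.04 for Ddx4, 0.72 ± 0.05 for Mael, 0.65 ± 0.08 for Slc25a31, 0.53 ± 0.06 for Dazl and 0.46 ± 0.08 for Sycp3 (adjusted p from 4.01e-19 for Ddx4 to 1.10e-05 for Sycp3).

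Marker levels also moved in the shMed10 libraries. ES cell markers summed to 638 and 682 RPKM in shMed10 libraries and to 1360 and 1380 RPKM in control_B, with 8 of 8 lower. Trophectoderm markers summed to 523 and 530 RPKM in shMed10 libraries and to 116 and 118 RPKM in control_B, with 4 of 5 tested higher. Fibroblast feeder markers summed to 5.65 and 7.13 RPKM in shMed10 libraries and to 1.46 and 1.99 RPKM in control_B (2 of 3 tested higher). Two-cell-like markers summed to 17.9 and 20.7 RPKM in shMed10 libraries and to 11.4 and 12.9 RPKM in control_B (4 of 5 higher). The part of these cells in the result was not tested.

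Over the 23 Mediator knockdowns of set B together, 3 of 7 genes were lower than control_B and 0 higher, where 18.8% of all genes were lower. The error here is the spread within pairs of libraries and leaves out that between knockdowns, so these counts are not comparable with those of the TFIID average below. Sycp3 changed by -0.28 ± 0.08 (adjusted p = 0.00621), Dazl by -0.23 ± 0.06 (adjusted p = 0.00296) and Sycp1 by -0.16 ± 0.05 (adjusted p = 0.0132). Ddx4 (-0.01), Mael (-0.01), Tdrkh (0.11) and Slc25a31 (0.11) did not pass. Over all genes 41.4% of gene and library pairs lay under both control_B libraries. Across its 46 libraries Sycp3 ranged from 5.58 to 10.4 RPKM (median 7.15), and 39 lay under both control_B libraries at 9.50 and 8.60. Dazl ranged from 2.69 to 6.47 RPKM (median 3.96), and 36 lay under both controls at 4.67 and 5.20. Sycp1 ranged from 2.96 to 7.92 RPKM (median 3.58), and 41 lay under both controls at 4.40 and 4.34. The calls hold with shMed10 left out (3 of 7), but without control_B replicate 1 only Dazl of the 3 passed, and without control_B replicate 2 only Sycp3 did. In the fit of all 100 libraries 0 of the 7 passed.

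Taken 1 knockdown at a time, 50 of 161 gene and knockdown pairs were lower and 22 higher, against 15.7% lower and 16% higher over all genes in the same 23 comparisons, which share control_B. In the fit of all 100 libraries 13 pairs passed over the 25 knockdowns of set B, in place of 80. Dazl was lower in 14 of 23 knockdowns, Sycp3 in 13 and Sycp1 in 12, while Slc25a31 was lower in 0 and higher in 4, and Tdrkh lower in 1 and higher in 7. Ddx4 went both ways, lower in 7 and higher in 6. Mael was lower in 3 and higher in 3.

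The knockdowns at the ends of each order were few. For 6 of 7 genes shGcn5 was the lowest of the 26 groups of set B, and for 7 of 7 shMed10 was the highest. Next to shGcn5 came shMed22 for Ddx4, with 14.9 and 14.7 RPKM in shMed22 libraries against 19.9 and 20.1 in control_B (-0.41 ± 0.05, adjusted p = 1.81e-07). For Dazl it was shMed19 (-0.61 ± 0.08, adjusted p = 4.61e-07), for Mael shMed7 (-0.38 ± 0.07, adjusted p = 8.17e-05), for Sycp1 shMed8 (-0.40 ± 0.07, adjusted p = 1.06e-04) and for Tdrkh shMed17 (-0.25 ± 0.09, adjusted p = 0.0189). Slc25a31 had shMed21 next (-0.17 ± 0.11), which did not pass. Sycp3 was the exception, with shMed9 lowest (-0.54 ± 0.11, adjusted p = 0.00138) and shMed19 next (-0.53 ± 0.11, adjusted p = 2.20e-04).

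Some neighbours in the middle of the order were close. Ddx4 averaged 10.9 ± 0.409 RPKM after shGcn5 and 35.6 ± 0.298 after shMed10 (SD, n = 2 each), with the other 24 groups between 14.8 ± 0.111 (shMed22) and 23.8 ± 1.04 (shMed12). Means of shMed9 (19.2 ± 1.06) and shMed30 (19.2 ± 0.255) differed by less than their spread. So did those of shMed19 (19.9 ± 1.16) and control_B (19.97 ± 0.112). Below shMed10, the next highest groups were shMed12 for Ddx4, Mael and Tdrkh, shMed30 for Slc25a31 (3.39 and 3.16 RPKM in shMed30 libraries against 2.39 and 2.02 in control_B, 0.42 ± 0.11, adjusted p = 0.00158), shMed26 for Dazl (0.16 ± 0.08, adjusted p = 0.177), and shCdk8 for Sycp1 (0.11 ± 0.07) and Sycp3 (0.04 ± 0.11).

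After knockdown of Med12, which activates the kinase module, genes moved both ways, among the 7 and over all genes. Of the 7, 4 rose and 2 fell, where 26.9% of all genes rose and 31.1% fell. Ddx4 had 23.1 and 24.6 RPKM in shMed12 libraries, against 19.9 and 20.1 in control_B (0.24 ± 0.05, adjusted p = 1.05e-04). Mael (0.28 ± 0.07), Tdrkh (0.33 ± 0.09) and Slc25a31 (0.38 ± 0.11) rose too. Dazl had 3.61 and 3.65 RPKM in shMed12 libraries, against 4.67 and 5.20 in control_B (-0.36 ± 0.08, adjusted p = 5.81e-04), and Sycp1 changed by -0.19 ± 0.07 (adjusted p = 0.0244). As with shMed10, 8 of 8 ES cell markers fell and 4 of 5 trophectoderm markers rose in shMed12 libraries.

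The 4 kinase knockdowns did not separate from the 15 head and middle knockdowns for any of the 7 genes. With the knockdown as the unit, limma called 0 of 7 genes and 0% of all genes, and at an unadjusted p under 0.05 there were 0 of the 7 and 381 of 12974. Intervals were wide: the difference was 0.11 for Ddx4 (95% interval -0.19 to 0.40) and 0.18 for Sycp3 (-0.01 to 0.37).

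In set A, Ddx4 and Dazl lay under both control_A libraries in 15 of 15 TFIID knockdowns. Ddx4 ranged from 5.17 RPKM (shTaf6) to 13.1 (shTaf4b), with a median of 7.93, against 15.6 and 13.4 in control_A. Dazl ranged from 0.901 RPKM (shTaf12) to 2.00 (shTaf11), with a median of 1.59, against 2.58 and 2.15 in control_A. The medians are 54.8% and 67.4% of the control means, and no library of either gene overlapped the controls. Over all 12974 genes tested, 30.3% of gene and library pairs lay under both controls, and 1.19% of genes did so in 15 of 15 libraries. The libraries labelled replicate 1, in which another TFIID subunit was the lowest target in 14 of 15, were as low: Ddx4 lay under both controls in 14 of 15 (median 54.4% of the control mean), Dazl in 14 (60.8%) and Sycp1 in 13 (61.2%), where 37.9% of all pairs did. The exception for Ddx4 and Dazl was the library labelled shTbp replicate 1, at 15.7 and 2.80 RPKM, in which the lowest of the 47 targets, Med11, stood at 76.7%.

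The other genes were less uniform. Sycp1 lay under both controls in 14 of 15 libraries (1.31 to 2.44 RPKM, median 1.83, against 3.34 and 2.43 in control_A), as did 2.82% of all genes in 14 or more. Sycp3 did so in 13 (4.15 to 9.38 RPKM, median 5.42, against 8.19 and 7.16), Mael in 12 (4.24 to 9.09 RPKM, median 7.11, against 8.15 and 8.03) and Slc25a31 in 10 (0.729 to 1.40 RPKM, median 1.07, against 1.34 and 1.12). Tdrkh spread around its controls, with 3 libraries under and 4 above both (1.29 to 3.36 RPKM, median 2.13, against 2.40 and 1.96). Over all genes 42.2% of gene and library pairs lay above both controls. Tex101 stayed at 0 to 0.206 RPKM in TFIID libraries, against 0.234 and 0.102 in control_A.

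**Figure D4:**
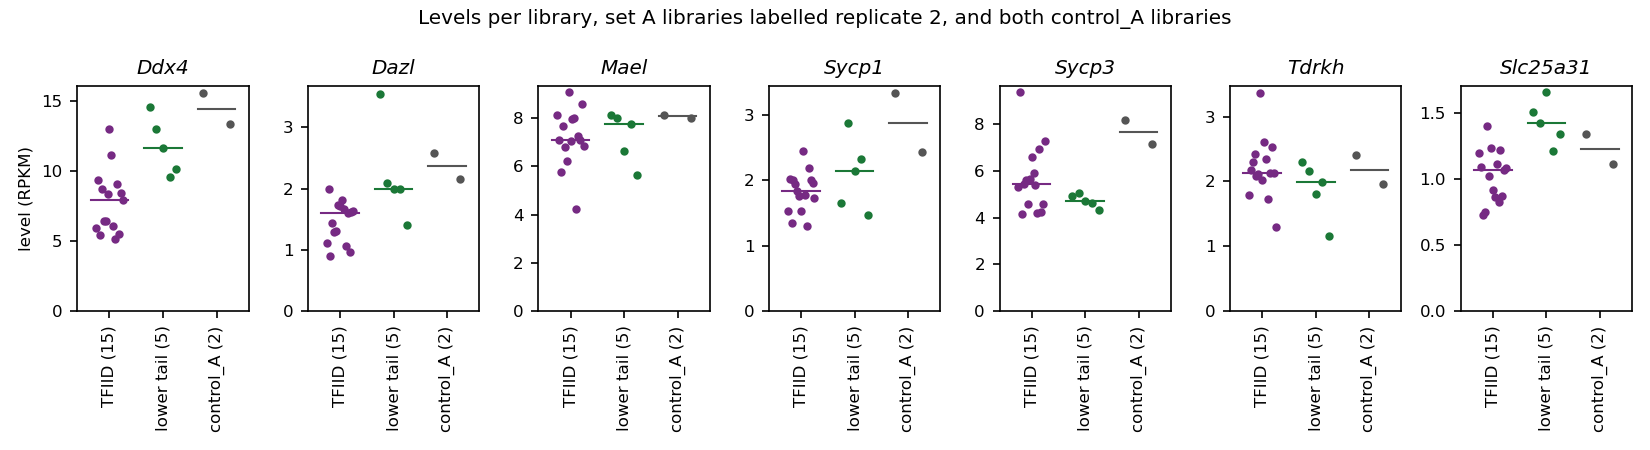
Levels (RPKM) of the 7 tested germline genes in set A: 15 TFIID and 5 lower tail knockdowns (replicate 2 libraries, 1 point each) and both control_A libraries, with the median of each group as a line. All TFIID points of Ddx4 and Dazl lie under both control_A points.

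Tested as 3 groups, so that the spread between knockdowns is the error, the TFIID average passed for 0 of 7 genes, and 0.239% of all genes passed (0.0308% lower). The changes were -0.85 ± 0.23 for Ddx4 (adjusted p = 0.157), -0.47 ± 0.17 for Dazl (adjusted p = 0.324), -0.46 ± 0.14 for Sycp1 (adjusted p = 0.217) and -0.40 ± 0.18 for Sycp3 (adjusted p = 0.447). At an unadjusted p under 0.05 in limma these 4 of the 7 passed, and 1319 of 12974 genes did. Mael (-0.17), Slc25a31 (-0.14) and Tdrkh (0.00) were nearer 0. With the mean of both labelled libraries of each knockdown in place of replicate 2, Ddx4 (-0.83, adjusted p = 0.0217) and Dazl (-0.45, adjusted p = 0.0443) passed, but the replicate 1 libraries in that mean go against their labels.

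The lower tail average also passed for 0 of 7 genes (0.0617% of all genes passed), with 2 of the 7 and 866 of 12974 at an unadjusted p under 0.05. Sycp3 had the lowest value (-0.60 ± 0.20, adjusted p = 0.439), with 4.31 to 5.05 RPKM in its 5 libraries against 8.19 and 7.16 in control_A, and 5 of 5 under both controls, where 33.8% of all gene and library pairs were and 6.62% of genes in 5 of 5. Ddx4 ranged from 9.57 to 14.6 RPKM (median 11.7), with 4 of 5 under both controls, as were 16.7% of all genes in 4 or more. Slc25a31 ranged from 1.22 to 1.66 RPKM, with 0 of 5 under and 3 above both controls, where 35.5% of all pairs lay above.

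Set directly against the lower tail knockdowns, TFIID knockdowns had 2 of 7 genes lower, where 2.54% of all genes were lower. Ddx4 differed by -0.57 ± 0.16 (adjusted p = 0.0306) and Slc25a31 by -0.27 ± 0.07 (adjusted p = 0.0267). Dazl (-0.36 ± 0.12, adjusted p = 0.0568) did not pass, nor did Sycp3, whose difference had the other sign (0.20 ± 0.12, adjusted p = 0.314). The count of 2 was 0 without shMed15, 0 without shMed16 and 0 without shMed23, and 3 without shMed25.

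One knockdown at a time, with the spread borrowed from groups that have 2 libraries, 48 of 105 TFIID pairs were lower and 1 higher, against 6.81% lower and 10.1% higher over all genes. Ddx4 was lower in 14 of 15, Sycp1 in 13, Dazl in 9, Sycp3 in 7, Mael in 3, and Tdrkh and Slc25a31 in 1 each. The lone library is assumed to vary like the others, and of 30 residual degrees of freedom 26 come from set B, so these p-values may be too small. In the fit of all 100 libraries 6 pairs of set A passed in place of 63. Without that borrowing, in set A alone, 0 of the 140 set A pairs passed.

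The lowest Ddx4 libraries were shTaf6, with 5.17 RPKM against 15.6 and 13.4 in control_A (-1.32 ± 0.07), shTaf12, with 5.40 RPKM (-1.27 ± 0.07), and shTaf8, with 5.49 RPKM (-1.25 ± 0.07). Adjusted p-values were 1.57e-16, 9.19e-16 and 2.24e-15. Taf6 stood at 30.9% and Taf12 at 30.2% of control_A in these libraries. After shTaf12, 6 of 7 genes were lower (15.6% of all genes), among them Dazl at 0.901 RPKM against 2.58 and 2.15 in control_A (-0.82 ± 0.12, adjusted p = 2.16e-06). After shTaf6 5 of 7 were lower (15.3% of all genes), with Mael at 4.24 RPKM against 8.15 and 8.03 in control_A (-0.80 ± 0.10, adjusted p = 2.03e-07). The weakest was shTaf4b, with Ddx4 at 13.1 RPKM (-0.14 ± 0.07), which did not pass. The single rise was Tdrkh after shTaf3, at 3.36 RPKM against 2.40 and 1.96 in control_A (0.46 ± 0.11).

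Among the 5 lower tail knockdowns 13 of 35 pairs were lower and 1 higher (5.9% and 5.62% of all genes). Sycp3 was lower in 5 of 5. After shMed25 6 of 7 genes were lower, where 3% of all genes were, with Tdrkh at 1.15 RPKM against 2.40 and 1.96 in control_A (-0.56 ± 0.11, adjusted p = 0.0014) and Slc25a31 at 1.34 RPKM, within its controls. The rise was Dazl after shMed15, at 3.54 RPKM against 2.58 and 2.15 in control_A (0.44 ± 0.12, adjusted p = 0.0158).

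Beside these values, trophectoderm markers summed to 311 to 1010 RPKM in TFIID libraries (median 515) and to 419 and 451 RPKM in control_A. Two-cell-like markers summed to 0.927 to 3.55 RPKM in TFIID libraries (median 1.94) and to 2.66 and 2.96 RPKM in control_A. Primitive endoderm markers summed to 61.5 to 146 RPKM in TFIID libraries (median 77.3) and to 64.5 and 68.3 RPKM in control_A, and 6 of 6 were higher after shTaf6 and 6 of 6 after shTaf12 (median log2 changes of 0.80 and 0.79). Over all genes 21.8% were higher after shTaf6 and 22.2% after shTaf12. Of the 5 tested trophectoderm markers, 3 were higher after shTaf6 and 4 after shTaf12. ES cell markers summed to 646 to 1110 RPKM in TFIID libraries (median 971) and to 1020 and 1080 RPKM in control_A. Their part in the levels of the germline genes was not tested.

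In set C 0 of 14 pairs passed in limma, where 0.166% of all pairs were lower and 0.69% higher, and 1 of the 14 had an unadjusted p under 0.05 (Ddx4 after shMed14). Log2 changes ran from -0.09 (Sycp3 after shMed14) to 0.22 (Slc25a31 after shMed14). In the libraries labelled replicate 2 neither target was lowered beyond 97.9% of control_C.

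The genes were next set beside the rest of the germline program in shGcn5 libraries. Of 22 listed piRNA and germ granule genes 14 could be tested, and 7 fell and 2 rose, where 12.4% of all genes fell and 20.1% rose. Those with the largest changes were Mov10l1, a helicase of piRNA biogenesis (-1.0015 ± 0.07), Fkbp6 (-0.98 ± 0.13), Gpat2 (-0.80 ± 0.10) and Piwil2, a Piwi protein (-0.65 ± 0.05). Of 22 tested meiosis genes 11 fell and 1 rose, led by Syce1 of the synaptonemal complex (-1.08 ± 0.08) and Stra8, the gatekeeper of meiotic entry (-0.995 ± 0.13). The list medians were -0.18 and -0.25, beside 0.04 over all genes. Taf7l, a TFIID subunit variant of germ cells, had a mean of 4.12 RPKM after shGcn5 against 7.92 in control_B (-0.80 ± 0.09, adjusted p = 3.80e-08).

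In shMed10 libraries the same lists went both ways. Of the 14 piRNA and germ granule genes 7 rose and 4 fell, with Tdrd1 (1.11 ± 0.08) and Tdrd7 (1.09 ± 0.08), Tudor proteins of the granules, highest. Of the 22 meiosis genes 9 rose and 8 fell, where 31.2% of all genes rose and 33.4% fell, with Rec8, the meiotic cohesin (1.11 ± 0.09), and Meioc (0.87 ± 0.05) highest and Stra8 (-0.97 ± 0.13) lowest. Taf7l averaged 28.0 RPKM after shMed10 against 7.92 in control_B (1.71 ± 0.09, adjusted p = 1.32e-16).

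Genes that repress the germline program moved as well. In shMed10 libraries 15 of 23 listed repressors fell and 2 rose, where 33.4% of all genes fell and 31.2% rose. The de novo DNA methyltransferase Dnmt3a was lowest, at a mean of 10.5 RPKM (-1.60 ± 0.04), followed by the histone methyltransferase Ehmt2 (-0.52 ± 0.06) and the PRC1.6 subunit Pcgf6 (-0.40 ± 0.05), while Yaf2 rose (0.66 ± 0.07) and so did E2f6 (0.39 ± 0.06). The demethylases Tet1 (-1.78 ± 0.07) and Tet2 (-1.44 ± 0.05) also fell, while Tet3 rose (0.65, adjusted p = 1.57e-11 in limma). In shGcn5 libraries 6 of the 23 fell and 4 rose, with Dnmt3b highest (0.56 ± 0.03), where 12.4% of all genes fell and 20.1% rose. In shMed12 libraries 17 of 23 fell and 2 rose, where 31.1% of all genes fell and 26.9% rose. The 7 germline genes went both ways there, as given above.

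Over the 23 Mediator knockdowns together, 10 of 22 meiosis genes fell and 0 rose, led by Stra8 (-1.07 ± 0.10), Tex14 (-0.47 ± 0.07) and Hormad1 (-0.38 ± 0.08), and 2 of 14 piRNA genes fell and 2 rose. Over all genes 18.8% fell and 18.9% rose in this average. Of the repressors 10 of 23 fell and 1 rose, Dnmt3a by -0.98 ± 0.03. In the TFIID and lower tail averages Stra8 was the listed meiosis gene that fell, by -0.93 ± 0.16 (adjusted p = 0.00823) and -1.41 ± 0.17 (adjusted p = 2.02e-04), while 0 of 14 piRNA genes and 0 of 23 repressors passed in either. Those averages take the spread between knockdowns as the error, so their counts are not comparable with those of the Mediator average.

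**Figure D5:**
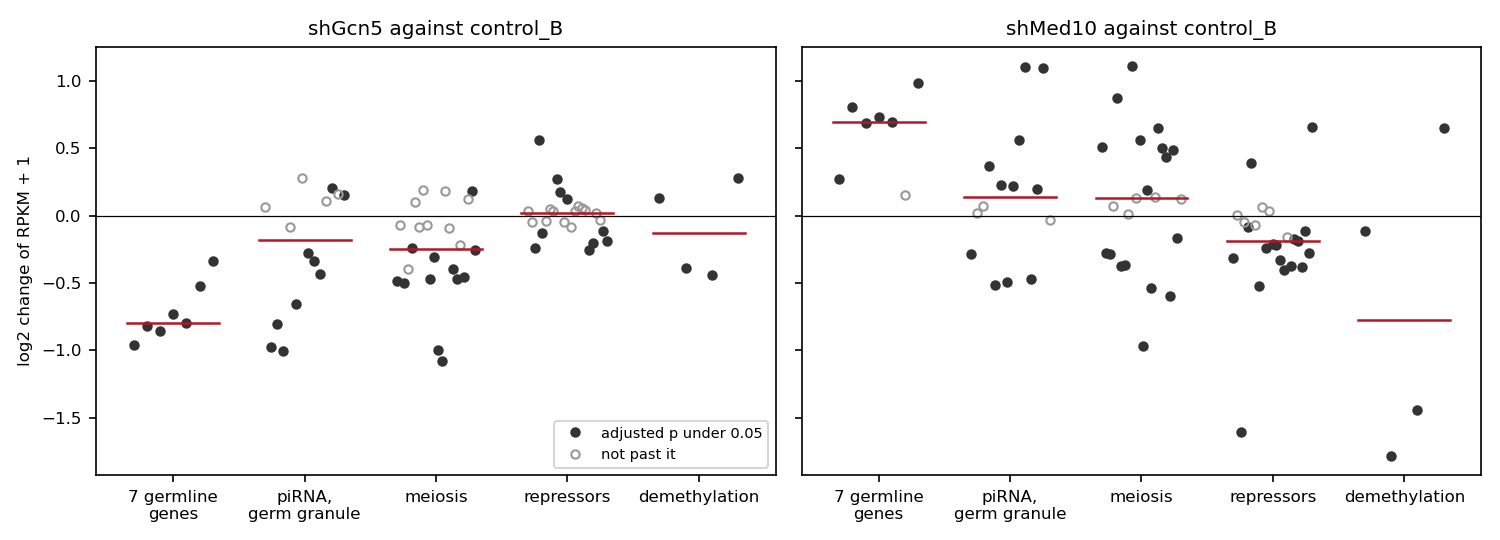
Log2 change of RPKM + 1 after shGcn5 (left) and shMed10 (right) against control_B for the 7 germline genes and 4 gene lists. Filled points passed an adjusted p under 0.05, open points did not, and red lines are list medians. The 7 germline genes lie under 0 after shGcn5 and above 0 after shMed10, and the lists spread to both sides.

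Across the 25 knockdowns of set B, which share control_B, the log2 changes of the 7 genes were correlated pair by pair with a median Pearson r of 0.68 (0.40 to 0.89, 21 pairs). Ddx4 and Slc25a31 were the closest pair (0.89) and Sycp3 and Tdrkh the furthest (0.40). Over all pairs of the 12974 genes the median was 0.02 (quartiles -0.28 and 0.31). Without shGcn5 and shMed10 the median was 0.25 over the 21 pairs (-0.19 to 0.70) and 0.02 over all pairs. The genes outside the set whose changes were most like the mean of the 7 over the same 25 knockdowns were Btbd18 (r = 0.83), Sycp2 (0.83), Stk31 (0.83), Taf7l (0.82), Ripk1 (0.82), Rhobtb1 (0.80), Hsf5 (0.79) and Nub1 (0.79). Without shGcn5 and shMed10 these 8 values were 0.20 (Stk31) to 0.67 (Rhobtb1). Sycp2, Stk31 and Taf7l of these are on the germline lists above.

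Some reads may come from neighbours. Sycp3 overlaps Chpt1 on the opposite strand, which reached 5.48 RPKM, and Tdrkh overlaps Oaz3 on the opposite strand, which reached 0.37 RPKM. Whether reads were counted by strand is not stated, so reads of these overlaps cannot be told apart.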

How the data were processed

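Messenger RNA of 100 libraries (50 groups of 2) was read from tables of RPKM that the authors deposited, 1 value per RefSeq transcript. Per the submitters' processing notes TopHat2 and build mm9 were used. The way reads were counted, and the use of strand, was not given in the sources used here. Symbols came from RefSeq tables of GRCm38.p6, and 1137 repeated lines were dropped. Groups and controls came from the labels.

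Steps in the low RPKM values gave the read numbers and the RPKM denominators (17.25 to 39.32 M reads). RPKM values are relative, so a change shared by all transcripts would not show. Tests were limma-trend (limma 3.58.1, R 4.3.3) on log2(RPKM + 1), over the 12974 genes that reached 1 RPKM in 2 or more libraries, two-sided, with Benjamini-Hochberg adjusted p under 0.05 within a comparison as a call. Set B was fitted alone (52 libraries, 26 residual degrees of freedom), set A as 3 groups (22 libraries, 19 degrees), single set A and set C knockdowns in a fit of 80 libraries (30 degrees), and the kinase module with 25 knockdowns as units. The fits and the read step were tested on simulated data.

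The 9 genes, the gene lists and the tests were chosen with earlier results of these data known. Named in full were each gene in the averages and the 2 lowest and 2 highest knockdowns of set B, at most 4 genes with the largest called change per list, and the 8 genes of highest correlation. The shGcn5, shMed10, shMed12, shTaf6, shTaf8, shTaf12 and shMed25 accounts were chosen after their values were seen. Alternatives were other pseudocounts, no filter, upper-quartile scaling, summed transcripts, other libraries and left-out libraries. Of the 29 listed meiosis genes 28 were named in the files.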

Additional observations from a re-analysis of the deposited data

Results flagged for a closer look

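The changes after shGcn5 and after shUsp22, which target the same complex, differed in 5 of 7 genes by a direct test in limma: Ddx4 by -0.60, Dazl by -0.79, Mael by -0.74, Sycp1 by -0.59 and Slc25a31 by -0.76 (log2, shGcn5 minus shUsp22). That test was added after the values were seen, and 11.5% of all genes were lower in it. Both libraries of shGcn5 lay under both of shUsp22 for each of the 5. They also did so for Sycp3 and Tdrkh, which did not pass, so this does not set the 5 apart. How many of all genes did so was not counted. Kat2a stood at 16.4% and 18.5% of control_B in shGcn5 libraries, and Usp22 at 38.1% and 41.0% in shUsp22 libraries.

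The change after shMed10 differed from the mean of the other 22 Mediator knockdowns in all 7 tested genes, by 0.85 for Ddx4, 0.53 for Dazl, 0.72 for Mael, 0.90 for Sycp1, 0.46 for Sycp3, 0.91 for Tdrkh and 0.65 for Slc25a31 (log2). Over all genes 31% were higher in that comparison, which was added after the values were seen. By then shMed10 stood highest of the 26 set B groups for all 7 genes, so the direction was known beforehand. TFIID knockdowns, with 1 library each, differed from lower tail knockdowns by -0.57 for Ddx4 and by -0.27 for Slc25a31. There 2.54% of all genes were lower, and neither gene passed without shMed15, without shMed16 or without shMed23.

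A library outside the comparisons also stood out. In the library labelled shMed16 replicate 1, which was not used because replicate 2 libraries stood for the set A knockdowns, all 7 tested genes lay above both control_A libraries, as did 38.4% of all genes. Ddx4 was at 26.7 RPKM in it, against 15.6 and 13.4 in control_A, and Tdrkh at 4.75 RPKM, against 2.40 and 1.96 in control_A. Med16 itself stood at 56.9% of control_A there, and the lowest of the 47 targets was Med10, at 26.8%.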

How the results depend on the processing

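Of the 546 values of single genes under other settings, 518 kept their side of the threshold, 23 kept their direction but no longer passed, and 5 passed that had not before. Among the 518, a change of sign in a value that passed in neither setting was not counted. None of the results changed sign past the threshold in any setting tried. Counts of called genes or pairs moved beyond 1.5 times as follows, and the cause was not tested. A fit of all 100 libraries takes both labelled libraries of each set A knockdown as 1 group. Those labelled replicate 1 go against their labels, so its spread is not that of replicates alone. In that fit the Mediator average called 0 genes in place of 3. Single set B knockdowns gave 13 pairs in place of 80, and single set A knockdowns 6 in place of 63. With set A alone 0 pairs passed. TFIID against the lower tail called 1 gene with no filter on low values, 1 with the libraries labelled replicate 1, and 4 with the mean of both labelled libraries in place of 2, and the TFIID average then called 2 in place of 0. With control_B as their control, shMed1 and shMed14 gave 12 calls in place of 0.

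Leaving out 1 control_B library gave 1 to 1 gene for the Mediator average, and leaving out shMed10 gave 3. Leaving out 1 library or knockdown gave 51 to 71 pairs for set B, 44 to 71 pairs for set A, 0 to 3 genes for TFIID against the lower tail, and 0 to 0 for the TFIID average, the lower tail average, the kinase module and set C. Replicate numbers were not shown to pair the samples: replicate differences of the 25 set B knockdowns correlated with those of control_B at 0.039 to 0.169 (16 above 0.1). With a replicate block 85 pairs passed in set B in place of 80, 49 in set A in place of 63 and 0 in set C, and the Mediator average called 3 genes. Upper-quartile scaling shifted the median of all genes by at most 0.04 (log2). Depth limits Tex101 and Asz1 (at most 29 and 10 reads).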
